A study of Homo sapiens with 6 samples.

Results

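Chemokines are small secreted proteins that draw leukocytes along a gradient, and IL6 and LIF are cytokines that signal through the shared receptor chain gp130 to the transcription factor STAT3. The genes described here are 10 such ligands: CXCL1, CXCL2, CXCL3, CXCL8 and CXCL16 of the CXC class, CCL2, CCL20 and CCL28 of the CC class, and IL6 and LIF. They were chosen by name, by the Ensembl identifier that GENCODE 29 pairs with each symbol, and all 10 are among the 58381 identifiers of the deposited table. The test covered 16047 genes whose mean over the 6 libraries reached 10 normalized counts, among them 9 of the 10. CCL2 was left out because it had no read. CXCL1, CXCL2, CXCL3, CXCL8, CCL20 and IL6 had higher means in CD24low than in CD24high cells, LIF and CXCL16 had lower ones, and CCL28 was close to equal, but libraries of the 2 groups overlapped for each gene and 0 of the 9 passed the test, as did 0.0% of all genes tested.

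The cells were MCF10AT1, a line derived from the human mammary epithelial line MCF10A by introduction of activated HRAS, and RNA-seq was the readout. The CD24low group was the CD24low, CD44high fraction of a fluorescence-activated sort, with 3 libraries; the CD24high group was the CD24high, CD44-positive fraction, also with 3 libraries. The submitters' column descriptions call them CSC (cancer stem cell) and Bulk. Both fractions came from one line in one medium of horse serum, insulin, EGF, cholera toxin and hydrocortisone, a glucocorticoid; no inflammatory stimulus is named in the labels, and no label says whether replicates were separate cultures, so the spread behind each p-value may be technical.

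Recovered reads per library ran from 16691162 to 27293177. Reads of ribosomal RNA took 7.15%, 7.07% and 1.97% in CD24low replicates 1, 2 and 3, and 1.30%, 2.27% and 10.2% in CD24high replicates 1, 2 and 3. This share, here and below, adds mitochondrial ribosomal RNA to that of nuclear genes, without separating them. CD24 RNA itself followed the sort, with 329 to 1370 normalized counts in CD24low libraries and 2325 to 5687 in CD24high libraries. Its log2 difference was -2.55, yet its limma adjusted p was 0.084, so it did not pass the test either. DESeq2 gave CD24 an adjusted p of 0.027. The lack of a call by limma therefore does not show that a gene is unchanged. CD44 averaged 7547 ± 716 normalized counts in CD24low and 8475 ± 562 in CD24high cells (SD, n = 3 each). The 7 breast epithelial markers all had means of at least 10 and summed to 65146 to 99674 in CD24low and 93274 to 114592 in CD24high libraries. Of 8 leukocyte markers 3 passed it, CD3E and MS4A1 were at 0, and the summed level was 187 to 277 normalized counts in CD24low and 178 to 216 in CD24high libraries. Of 5 endothelial markers only PECAM1 passed, and their sum was 110 to 345 in CD24low and 92.9 to 400.1 in CD24high libraries. Of 7 fibroblast markers DCN and COL1A1 passed, LUM was at 0, and the sum was 879 to 3827 in CD24low against 48.2 to 356 in CD24high libraries. The part of these markers in the results below was not tested.

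CXCL1, CXCL2, CXCL3 and CXCL8 carry the ELR motif of the chemokines that attract neutrophils through the receptors CXCR1 and CXCR2. In epithelial cells these genes, like CCL20 and IL6, are textbook targets of the transcription factor NF-kappaB, which binds a kappaB site close to their start. IL6 and LIF bind their own receptors, IL6R and LIFR, which pair with gp130. LIF is best known for keeping mouse embryonic stem cells undifferentiated.

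The promoters are shown because 4 of these genes lie in a genomic cluster and most carry this class of site. The 120 bases from position -130 to -11 before the start of each gene, from RefSeq on GRCh38.p14, are written 5′ to 3′ on the gene's strand, with matches to a kappaB motif in capitals (for CCL20 the match reads on the opposite strand).
CXCL1 (chr4:73869263-73869382, plus strand): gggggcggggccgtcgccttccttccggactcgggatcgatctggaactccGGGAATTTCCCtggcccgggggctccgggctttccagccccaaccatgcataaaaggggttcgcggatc
CXCL2 (chr4:74099206-74099325, minus strand): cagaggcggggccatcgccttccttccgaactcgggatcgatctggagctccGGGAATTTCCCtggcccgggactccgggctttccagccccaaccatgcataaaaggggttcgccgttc
CXCL3 (chr4:74038700-74038819, minus strand): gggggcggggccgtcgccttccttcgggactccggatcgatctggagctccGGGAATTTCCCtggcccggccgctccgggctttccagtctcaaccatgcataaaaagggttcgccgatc
CXCL8 (chr4:73740439-73740558, plus strand): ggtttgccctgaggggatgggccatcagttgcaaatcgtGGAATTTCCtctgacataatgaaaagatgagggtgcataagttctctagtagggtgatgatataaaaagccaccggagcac
CCL20 (chr2:227813712-227813831, plus strand): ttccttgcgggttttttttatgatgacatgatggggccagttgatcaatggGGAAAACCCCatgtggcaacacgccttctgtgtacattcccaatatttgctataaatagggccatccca
IL6 (chr7:22727070-22727189, plus strand): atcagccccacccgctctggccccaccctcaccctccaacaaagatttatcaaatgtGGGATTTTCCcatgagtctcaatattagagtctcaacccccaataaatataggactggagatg

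The promoter table held 7 of the 10 genes, and CXCL16, CCL2 and LIF were not among them. Motifs were searched on both strands of the 300 bases from 250 before to 50 after each start. The 10-base kappaB consensus matched in 5 of the 7 promoters (CXCL1, CXCL2, CXCL3, CCL20 and IL6) and in 11.3% of 35116 promoters of the same length. The 9-base form GGANTTTCC, which overlaps the consensus wherever both match here, was in 5 of the 7 (CXCL1, CXCL2, CXCL3, CXCL8 and IL6) and in 1.64% of all promoters. In CXCL1, CXCL2 and CXCL3 both strands matched, over the same 11 letters GGGAATTTCCC. These genes are close copies, and textbook NF-kappaB targets were searched, so the kappaB counts beside all promoters are a description only. The AP-1 motif TGANTCA was in the CXCL8 promoter alone among the 7, against 7.71% of all promoters, and the CEBP motif TTGCNNAA was in CXCL2 and IL6, against 10.5%. The RUNX motif TGTGGT, searched because the series title names RUNX factors, was in 0 of the 7 promoters and in 13.1% of all promoters. The promoters of CXCL1 and CXCL3 were identical at 206 of 300 positions counted from the gene start without gaps, and those of CXCL1 and CXCL8 at 75 of 300.

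CXCL8, CXCL1, CXCL3 and CXCL2 lie within 358788 bases of chromosome 4 (chr4:73740506-74099293, hg38), a stretch with 9 annotated protein-coding genes. In that stretch 4 genes passed the filter, and they are the members. CXCL6, PF4V1 and CXCL5 had no read in any library, PF4 had at most 0.98 normalized counts, and PPBP, the platelet basic protein gene, had 2.87 to 4.41 normalized counts in CD24low and 0.83 to 10.2 in CD24high libraries. CXCL1, CXCL2 and CXCL3 are close copies of each other. Of the 50-base windows of their annotated transcripts, 4.81% of CXCL1, 12.5% of CXCL2 and 6.01% of CXCL3 also occur in another of the 3 genes, so a small part of their counts may be shared; for CXCL8 the share was 0%.

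**Figure D1:**
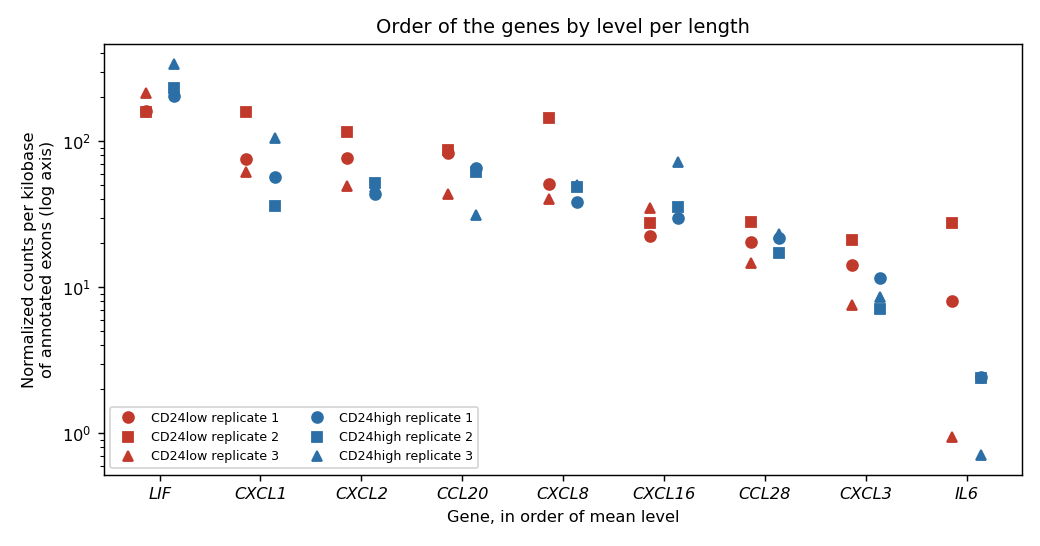
Level of each gene per length, as normalized counts per kilobase of annotated exons on a log axis, with 1 symbol per library; CD24low libraries are red and left of the blue CD24high libraries. LIF stands highest and IL6 lowest by mean among the 9 tested genes, and IL6 spreads from 0.71 to 27.7.

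Compared per length, LIF had the highest mean level of the 9 tested genes and IL6 the lowest, while CCL2 was at 0. LIF averaged 178 normalized counts per kilobase of annotated exons in CD24low and 259 in CD24high libraries. It was the highest of the 10 genes in 5 of 6 libraries; in CD24low replicate 2, CXCL1 had 158.5 and LIF 158.1. Next by mean over the 6 libraries came CXCL1 (82.3), CXCL2 (64.3), CCL20 (62.1) and CXCL8 (61.9), whose ranges over libraries overlap one another, so their order is not resolved. CXCL16 (37.1) and CCL28 (20.9) followed, and their ranges overlap as well. The range of CXCL16, 22.4 to 72.2, also overlaps those of CXCL1, CXCL2, CCL20 and CXCL8. That of CCL28, 14.7 to 28.1, overlaps those of CXCL3 and IL6. CXCL3 averaged 11.7 and IL6 7.04, with overlapping ranges of 7.12 to 21.1 and 0.71 to 27.7. In CD24low replicate 2, IL6 (27.7) lay above CXCL3 (21.1) and next to CXCL16 (27.3). Among all genes tested, the mean per kilobase of LIF stood above 73.6% of genes and that of CXCL1 above 48.5%, and the other tested members stood above 7.75% to 42.5%.

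CCL2, the main chemokine for monocytes, was not detected. With 0 reads in each of the 6 libraries, the limit set by 3 reads per library was 2.64 to 2.94 normalized counts in CD24low and 2.49 to 4.38 in CD24high libraries, for counting error alone.

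**Figure D2:**
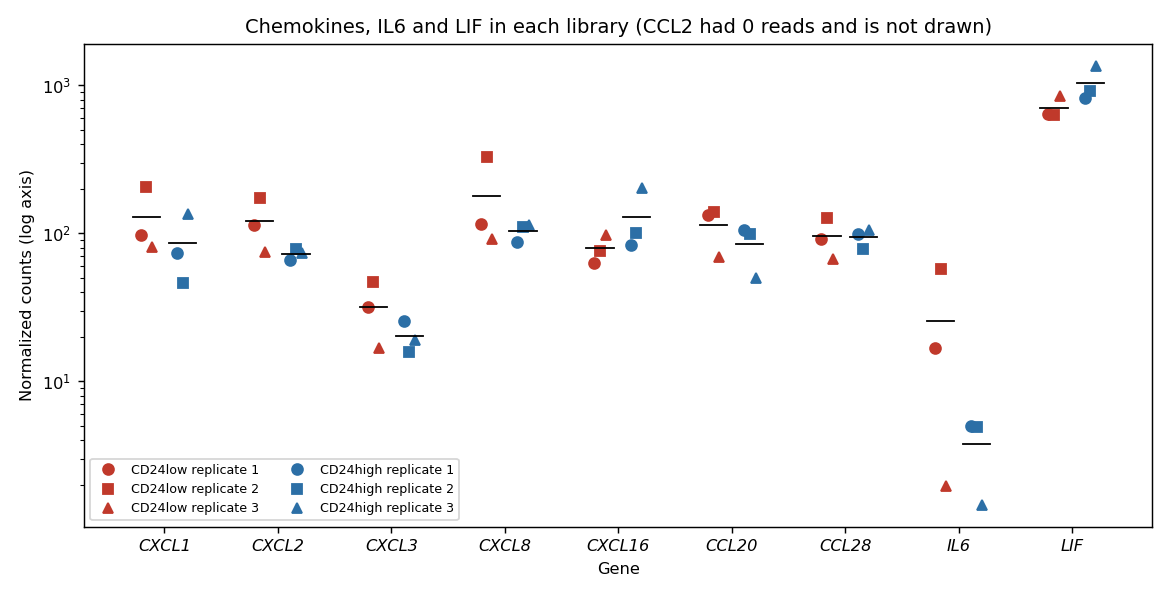
Normalized counts of the 9 tested genes in each library on a log axis, with CD24low in red left of CD24high in blue and the mean of each group as a black line. The red squares, CD24low replicate 2, are the highest point for 7 of the 9 genes, and the 2 groups overlap for each gene.

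The ELR chemokines had higher means in CD24low cells, but the groups overlapped for each of them and none passed the test. CXCL8, the prototype neutrophil attractant interleukin-8 (ENSG00000169429.10, chr4:73740506-73743716, plus strand), had 116, 327 and 91.1 normalized counts in CD24low replicates 1, 2 and 3, against 87.1, 110 and 114 in CD24high replicates 1, 2 and 3. CD24low replicate 2 alone stood apart, and the other 5 libraries lay between 87.1 and 116. The log2 difference of CXCL8, taken as CD24low minus CD24high after adding 1 to each normalized count, was 0.55 (SE 0.40, 95% interval -0.34 to 1.45), with a limma p of 0.20 and a Benjamini-Hochberg adjusted p of 0.58 over all genes tested. It was 0.00095 without CD24low replicate 2 and 0.92 without CD24low replicate 3.

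CXCL1, an ELR chemokine first found as a growth factor for melanoma cells (ENSG00000163739.4, chr4:73869393-73871242, plus strand), had 97.8, 205 and 80.3 normalized counts in CD24low replicates 1, 2 and 3, against 73.9, 46.4 and 136 in CD24high replicates 1, 2 and 3. CD24high replicate 3 was the second highest library, above 2 of the 3 CD24low libraries. Its log2 difference was 0.59 (SE 0.42, 95% interval -0.36 to 1.54, limma adjusted p = 0.57). It was 0.19 without CD24low replicate 2 and 0.99 without CD24high replicate 3.

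CXCL2, its close copy (ENSG00000081041.8, chr4:74097035-74099293, minus strand), had 115, 173 and 74.4 normalized counts in CD24low replicates 1, 2 and 3, against 65.6, 78.0 and 73.1 in CD24high replicates 1, 2 and 3. Here 2 of the 3 CD24low libraries lay above every CD24high library, and CD24low replicate 3 lay among them. The mean was 121 ± 49.5 in CD24low and 72.2 ± 6.29 in CD24high cells (SD, n = 3 each). The log2 difference of 0.65 (SE 0.28, 95% interval 0.016 to 1.29) had an unadjusted limma p of 0.046 and an adjusted p of 0.36. Without CD24low replicate 2 it was 0.35 (limma adjusted p = 0.71). The unadjusted p was above 0.05 with any single library left out other than CD24low replicate 3, without which the difference was 0.96 (limma adjusted p = 0.086). Of all genes tested, 6.34% lay below an unadjusted p of 0.05 with a positive difference.

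CXCL3, the third of these copies (ENSG00000163734.4, chr4:74036589-74038807, minus strand), was low, with 31.7, 46.8 and 16.7 normalized counts in CD24low replicates 1, 2 and 3, against 25.7, 15.8 and 19.0 in CD24high replicates 1, 2 and 3. Those values rest on 13 to 49 reads per library. The log2 difference was 0.54 (SE 0.39, 95% interval -0.34 to 1.42, limma adjusted p = 0.58). It was 0.21 without CD24low replicate 2 and 0.93 without CD24low replicate 3. Across the 6 libraries the log2 levels of the 4 ELR chemokines had Pearson correlations of 0.68 to 0.91 over their 6 pairs, a description that rests in part on CD24low replicate 2, the highest library for each.

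**Figure D3:**
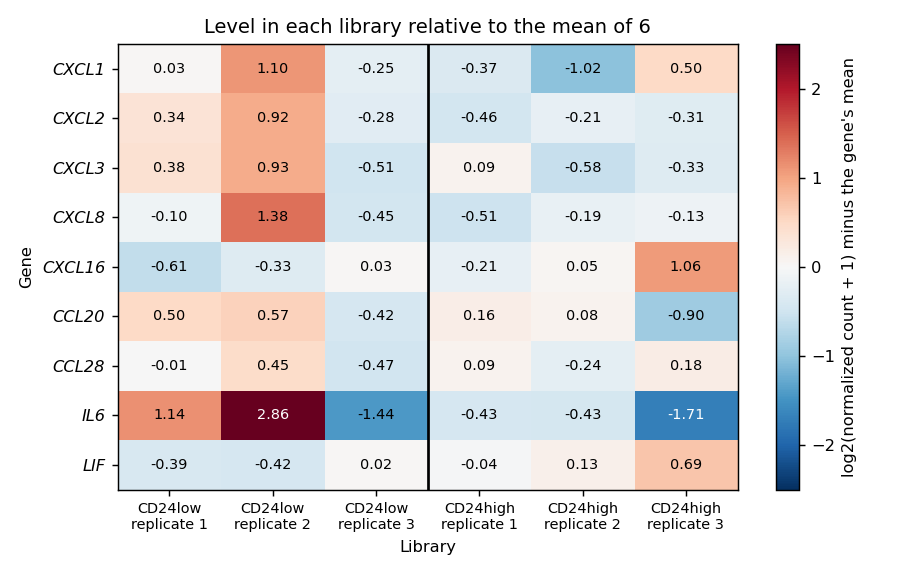
Level of each tested gene in each library on the log2 (normalized count + 1) scale, minus that gene's mean over the 6 libraries, with CD24low libraries left of the line and CD24high libraries right of it. CD24low replicate 2 reaches 1.38 for CXCL8 and 2.86 for IL6, while LIF and CXCL16 reach 0.69 and 1.06 in CD24high replicate 3.

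IL6, the cytokine of the acute phase response (ENSG00000136244.11, chr7:22725884-22732002, plus strand), had the widest spread of the group. It had 16.7, 57.3 and 1.96 normalized counts in CD24low replicates 1, 2 and 3, against 4.98, 4.94 and 1.46 in CD24high replicates 1, 2 and 3. In reads these were 19, 60 and 2 in CD24low and 6, 5 and 1 in CD24high libraries. The exact 95% counting interval was 45.8 to 77.2 reads for CD24low replicate 2 and 0.242 to 7.225 for CD24low replicate 3, so these 2 libraries of one group differed beyond counting error. CD24low replicates 1 and 2 stood above every CD24high library, and CD24low replicate 3 stood below 2 of the 3. IL6 passed the filter on low values through CD24low libraries only, since its mean was 25.3 ± 28.7 in CD24low and 3.79 ± 2.02 in CD24high cells (SD, n = 3 each). The differences and p-values of IL6, here and below, are therefore a description only.

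The fitted difference in IL6 was 1.71 on the log2 scale (SE 0.93, 95% interval -0.37 to 3.79), a 3.27-fold higher value with an interval from 0.77-fold to 13.9-fold. The limma adjusted p was 0.45, and DESeq2, whose difference was 2.70 on the recovered reads without a pseudocount, gave an adjusted p of 0.11. It was 2.86 without CD24low replicate 3 and 0.71 without CD24low replicate 2. STEAP1B and the antisense gene AC073072.1 overlap IL6 on the opposite strand. They had at most 14.1 and 0.96 normalized counts in any library, and the strand setting of the read counting is not given in the sources used here.

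LIF ran the other way. LIF (ENSG00000128342.4, chr22:30240447-30246851, minus strand) had 636, 628 and 851 normalized counts in CD24low replicates 1, 2 and 3, against 816, 918 and 1352 in CD24high replicates 1, 2 and 3. The groups overlapped by 1 pair of libraries, since CD24low replicate 3 lay above CD24high replicate 1. Means were 705 ± 127 in CD24low and 1028 ± 285 in CD24high cells (SD, n = 3 each). The log2 difference of -0.52 (SE 0.20, 95% interval -0.96 to -0.084) had an unadjusted limma p of 0.024 and an adjusted p of 0.30. It was -0.31 without CD24high replicate 3 (limma adjusted p = 0.42). The unadjusted p was above 0.05 without that library, without CD24low replicate 1 and without CD24low replicate 2. A negative difference with an unadjusted p below 0.05 was found for 7.15% of all genes tested. The antisense genes LIF-AS1 and AC004264.1 overlap LIF, with at most 5.84 and 32.6 normalized counts.

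CXCL16, a chemokine made as a transmembrane protein that is shed from the cell surface (ENSG00000161921.14, chr17:4733526-4739922, minus strand), followed the order of LIF more than that of the ELR chemokines. It had 62.6, 76.4 and 97.95 normalized counts in CD24low replicates 1, 2 and 3, against 83.0, 99.8 and 202 in CD24high replicates 1, 2 and 3. CD24high replicate 3 alone lay far above the others. The log2 difference was -0.61 (SE 0.32, 95% interval -1.33 to 0.12, limma adjusted p = 0.45), and -0.23 without CD24high replicate 3. Across the 6 libraries the log2 levels of CXCL16 and LIF had a Pearson correlation of 0.96. Each has its highest value in CD24high replicate 3, the shallowest library and the one with the largest share of ribosomal RNA, whose part in this was not tested. MED11 overlaps CXCL16 on the opposite strand and had 129 to 185 normalized counts, so the level of CXCL16 is uncertain if reads were counted without regard to strand.

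CCL20 and CCL28, the tested CC chemokines, did not pass the test, and their groups overlapped. CCL20, the ligand of CCR6 that attracts dendritic cells and Th17 cells to epithelia (ENSG00000115009.12, chr2:227805739-227817564, plus strand), had 132, 139 and 69.5 normalized counts in CD24low replicates 1, 2 and 3, against 105, 98.8 and 49.7 in CD24high replicates 1, 2 and 3. In each group the library numbered 3 was the lowest, and at each replicate number CD24low lay above CD24high. The log2 difference was 0.44 (SE 0.34, 95% interval -0.33 to 1.21, limma adjusted p = 0.61), and ranged from 0.096 without CD24high replicate 3 to 0.75 without CD24low replicate 3. With a replicate block on the number in the labels, the SE was 0.19 and the unadjusted limma p 0.044 (adjusted p = 0.28). CXCL2 and IL6 also lay higher in CD24low at each number, CXCL16 and LIF lay lower, and CXCL1, CXCL3, CXCL8 and CCL28 were mixed. The unadjusted limma p with that block was 0.015 for CXCL2, 0.0097 for IL6, 0.013 for CXCL16 and 0.0013 for LIF. The limma adjusted p was 0.16, 0.12, 0.14 and 0.035 in that order. CCL28, a mucosal chemokine for plasma cells (ENSG00000151882.11, chr5:43376645-43412391, minus strand), had 91.7, 127 and 66.6 normalized counts in CD24low replicates 1, 2 and 3, against 98.7, 78.0 and 105 in CD24high replicates 1, 2 and 3. Its log2 difference was -0.02 (SE 0.25, 95% interval -0.59 to 0.55, limma adjusted p = 0.98), an interval that still allows a fold of 0.66 to 1.46.

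**Figure D4:**
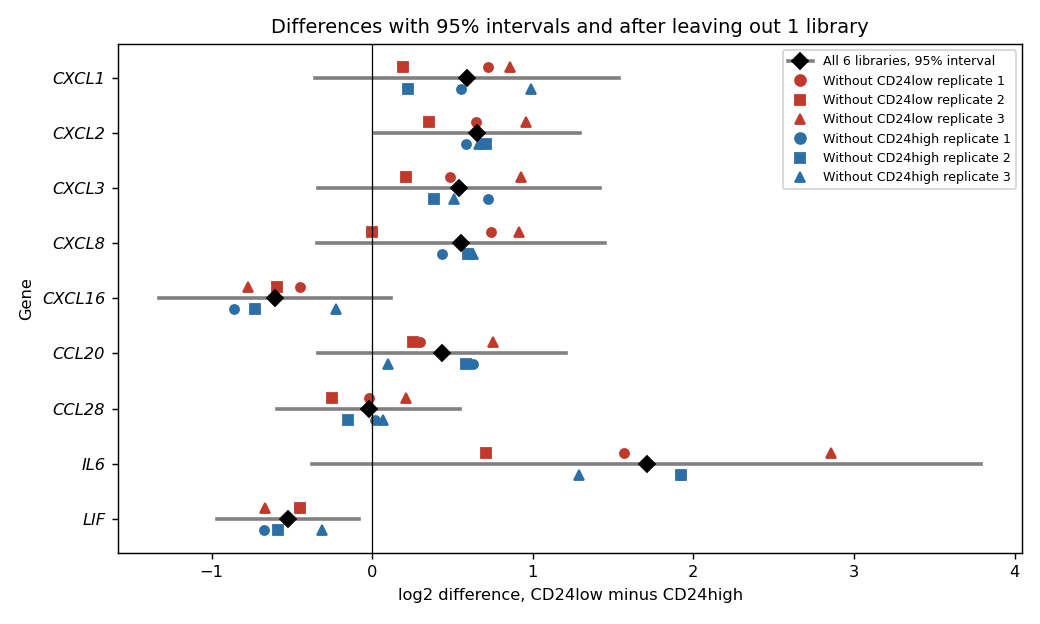
Log2 difference of each tested gene, CD24low minus CD24high, as a black diamond with its 95% interval from limma, and the same difference after leaving out 1 library, with left-out CD24low libraries drawn above the interval and left-out CD24high libraries below it. For CXCL8 the value without CD24low replicate 2 is 0.00095, and for IL6 the values spread from 0.71 to 2.86.

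Of the 9 tested genes, 0 passed limma's adjusted p of 0.05, against 0.0% of all 16047 genes tested. At an unadjusted p below 0.05 there were 2 of the 9, CXCL2 and LIF, against 13.5% of all genes. That count was 6 of 9 without CD24low replicate 3, when 2539 of all genes passed, and 0 of 9 without CD24low replicate 1 or without CD24low replicate 2, when 1596 and 1387 of all genes passed. DESeq2 on the recovered reads called 0 of the 9, against 2.51% of all genes (1.36% higher and 1.15% lower in CD24low cells), with 5 of the 9 and 13.0% of all genes at an unadjusted p below 0.05. The quasi-likelihood test of edgeR called 0 of the 9 and 0 of all genes, with 3 of the 9 and 14.1% of all genes at an unadjusted p below 0.05. With a replicate block on the number in the labels, limma called 1 of the 9 (LIF) and 716 of all genes. With that block edgeR called 2 of the 9 (LIF and IL6) and 705 of all genes. The call of IL6 is a description only, since IL6 passed the filter through CD24low libraries. The groups overlapped for 9 of 9, while 19.5% of all genes had groups that did not overlap. The median difference of the 9 was 0.54, against -0.0066 over all genes tested, and 6 of the 9 were above 0. CD24low replicate 2 was the highest library for 7 of the 9 genes (CXCL1, CXCL2, CXCL3, CXCL8, CCL20, CCL28 and IL6), and for 23.7% of all genes tested. CD24high replicate 3 was the highest for the other two, CXCL16 and LIF.

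Libraries also differed by ribosomal RNA share, so differences were taken within libraries of like share, each with 1 library on one side and therefore untested. Within high share, CD24low replicates 1 and 2 against CD24high replicate 3, the log2 difference was 3.71 for IL6, 1.43 for CCL20, 0.98 for CXCL3, 0.94 for CXCL2, 0.77 for CXCL8, 0.061 for CXCL1, 0.037 for CCL28, -1.10 for LIF and -1.53 for CXCL16. Within low share, CD24low replicate 3 against CD24high replicates 1 and 2, it was -1.01 for IL6, -0.54 for CCL20, -0.39 for CCL28, -0.26 for CXCL3, -0.10 for CXCL8, 0.057 for CXCL2, 0.45 for CXCL1, -0.024 for LIF and 0.11 for CXCL16. IL6, CCL20, CXCL3, CXCL8, CCL28 and CXCL16 thus had opposite signs in the 2 sets. With the split by share as a covariate over all 6 libraries, the limma difference was 0.25 for CXCL1, 0.50 for CXCL2, 0.36 for CXCL3, 0.33 for CXCL8, 0.45 for CCL20, 1.35 for IL6, -0.18 for CCL28, -0.71 for CXCL16 and -0.56 for LIF, each with the sign it had without the covariate, and 0 of the 9 passed the adjusted p. Share of ribosomal RNA and the single libraries cannot be told apart here.

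By likeness of pattern over the 6 libraries on the log2 scale, the closest of 12774 other genes averaging 50 or more normalized counts were ZNFX1 and DPF2 for CXCL1 (Pearson r = 0.993 and 0.987), JPH2 and STARD9 for CXCL2 (0.992 and 0.991), and PHF21A and SEPT6 for CXCL8 (0.994 and 0.993). They were FAM98C and CNNM4 for CXCL16 (0.993 and 0.992), ATG10 and COPS8 for CCL20 (0.998 and 0.988), KIAA1211L and RAB5B for CCL28 (0.993 and 0.987), and LINC02595 and PVT1 for LIF (0.995 and 0.994). With 6 libraries and this many genes, such values are a description only.

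**Figure D5:**
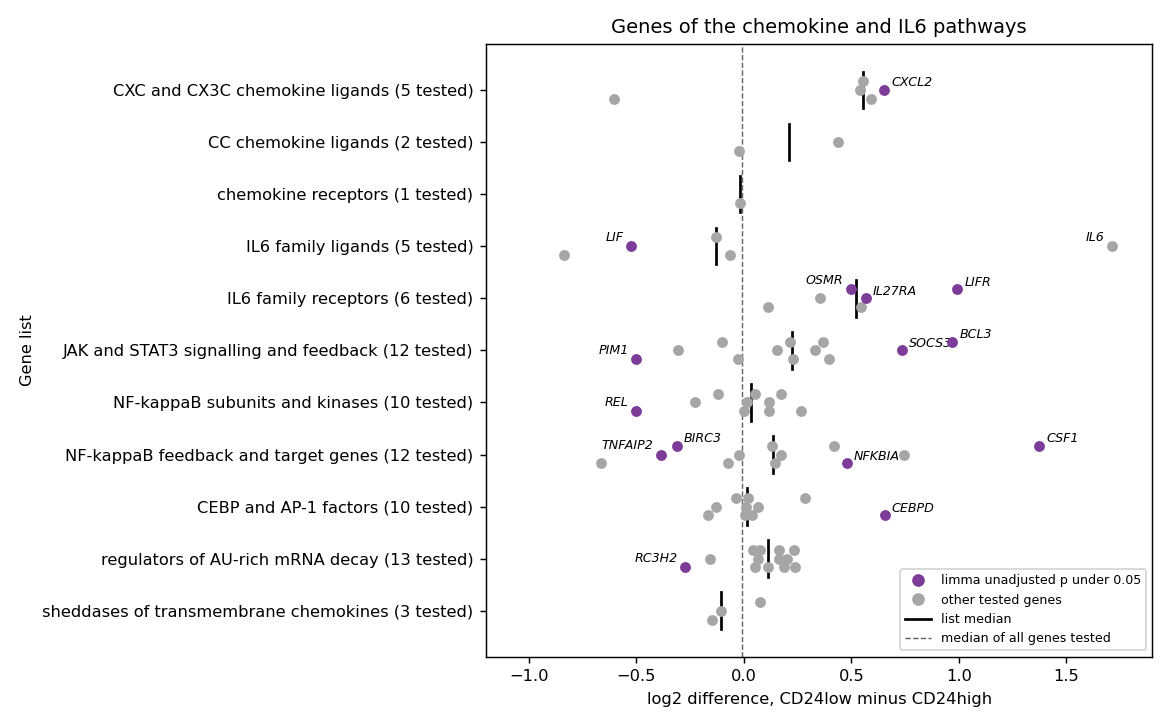
Log2 differences, CD24low minus CD24high, of the tested genes of 11 pathway lists, 1 point per gene, with list medians as black bars and the median of all genes tested as a dashed line. Purple genes have a limma p below 0.05 before adjustment; the receptors of the IL6 family lie right of 0, led by LIFR at 0.99.

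The other genes of the pathways were read from 11 lists, which also hold the members and in which 0 genes passed limma's adjusted p. The other chemokine ligands had means under 10 normalized counts. Of 17 CXC and CX3C ligands 5 were tested and 5 had no read, and of 19 CC ligands 2 were tested and 14 had no read; all 7 tested ligands are members described above. Of 21 chemokine receptors only CXCR1, the receptor of CXCL8, was tested, with 3.82 to 19.4 normalized counts in CD24low and 4.38 to 16.6 in CD24high libraries. CXCR2 had no read in any library. In bulk RNA, fewer cells with a transcript and less of it per cell cannot be told apart.

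The receptors of the IL6 family had higher means in CD24low cells, and the difference was above 0 for 6 of 6 tested genes, against 49.0% of all genes tested, with a median of 0.52. The highest library was CD24low replicate 2 for 6 of the 6, as it was for 7 of the 9 members and for 23.7% of all genes tested. LIFR, the receptor chain for LIF, had 199, 336 and 167 normalized counts in CD24low replicates 1, 2 and 3, against 143, 110 and 89.1 in CD24high replicates 1, 2 and 3. Each CD24low library lay above each CD24high library. The log2 difference was 0.99 (SE 0.27); limma's adjusted p was 0.18 and DESeq2's 0.024. IL6ST, which encodes gp130 and had the highest level per length of the list, averaged 2745 ± 465 and 2183 ± 625 normalized counts in CD24low and CD24high cells (SD, n = 3 each; difference 0.35, limma adjusted p = 0.47). OSMR and IL27RA, named after their values were seen, also had groups that did not overlap, with differences of 0.50 and 0.57 and limma adjusted p-values of 0.27 and 0.25. Groups that did not overlap with CD24low higher were found for 3 of the 6 receptors and for 10.2% of all genes tested. Of the 5 tested ligands of the family, 4 had a negative difference, as did 8185 of all 16047 genes tested. Among the 4, CLCF1 (-0.064) and CNTF (-0.13) were close to 0. IL11 had 7.93, 6.69 and 11.8 normalized counts in CD24low replicates 1, 2 and 3, against 12.4, 22.7 and 14.6 in CD24high replicates 1, 2 and 3 (difference -0.84, limma adjusted p = 0.38). Its means were 8.79 in CD24low and 16.6 in CD24high cells. It thus passed the filter on low values through CD24high libraries, and its values are a description only. IL11, CLCF1 and CNTF were also named afterwards.

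Downstream genes were mixed. Of 12 tested genes of JAK and STAT3 signalling, 2 had an unadjusted limma p below 0.05 with a positive difference and 1 with a negative one, against 6.34% and 7.15% of all genes tested. They were BCL3, a nuclear IkappaB protein (difference 0.97, adjusted p = 0.30), SOCS3, the feedback inhibitor of gp130 signalling (0.74, adjusted p = 0.30), and PIM1, a kinase gene induced by STAT3 (-0.50, adjusted p = 0.35). SOCS3 had 154, 276 and 161 normalized counts in CD24low replicates 1, 2 and 3, against 120, 146 and 83.3 in CD24high replicates 1, 2 and 3, without overlap. The median of the list was 0.22, and JUNB, its most abundant gene per length, differed by 0.33 (adjusted p = 0.61). STAT3 itself differed by 0.16 (adjusted p = 0.58). SOCS3, STAT3, CXCR2, TNF, ADAM10, ADAM17 and BIRC3 were named after their values were seen.

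Of 10 tested subunits and kinases of NF-kappaB, none had a positive difference with an unadjusted limma p below 0.05, against 6.34% of all genes tested. A negative one was found for REL, which encodes c-Rel, and for 7.15% of all genes tested. REL had 186 ± 19.0 normalized counts in CD24low and 263 ± 23.8 in CD24high cells (SD, n = 3 each, difference -0.50, limma adjusted p = 0.21). The groups did not overlap for REL, as for 9.32% of all genes tested in that direction. NFKB1, the most abundant of them per length, differed by 0.015 (adjusted p = 0.97). Of 12 tested feedback and target genes, 2 had a positive difference at that unadjusted p, CSF1 and NFKBIA, and 2 a negative one, TNFAIP2 and BIRC3, against 6.34% and 7.15% of all genes tested, around a median of 0.14. CSF1, the growth factor of macrophages, had 222, 364 and 151 normalized counts in CD24low replicates 1, 2 and 3, against 78.8, 91.9 and 94.98 in CD24high replicates 1, 2 and 3. It was 2.59-fold higher in CD24low cells (log2 1.37, SE 0.28), with a limma adjusted p of 0.11 and a DESeq2 adjusted p of 0.00037. NFKBIA, the inhibitor that NF-kappaB induces, differed by 0.48 (limma adjusted p = 0.23) and TNFAIP2 by -0.39 (limma adjusted p = 0.36). TNF had no read in any library.

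Among 10 tested CEBP and AP-1 factors, 1 had an unadjusted limma p below 0.05, against 13.5% of all genes tested. It was CEBPD, an acute phase factor, with 532 ± 184 normalized counts in CD24low and 330 ± 71.2 in CD24high cells (SD, n = 3 each, difference 0.65, limma adjusted p = 0.29). CEBPB, the most abundant of them per length, differed by 0.28 (adjusted p = 0.54).

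Most of the members also have a common feature of their messages. AU-rich elements in the untranslated end of an mRNA, built of the pentamer AUUUA, mark it for rapid decay. In the longest annotated 3′ untranslated region of each gene, the pentamer was found 10 times in CXCL2, 9 in CXCL8, 7 in each of CXCL3, CCL28 and LIF, 6 in IL6, 5 in CXCL1, 3 in CCL20 and 1 in each of CXCL16 and CCL2. The median over 12287 tested genes was 2. Per kilobase of that region the pentamer was most frequent in IL6 (13.99) and CXCL2 (13.9), against a median of 1.74 over tested genes, with very short regions left out. CXCL3 had 10.4, CXCL8 7.19, CXCL1 7.08 and CCL20 6.24. Closer to that median were CCL28 (2.62), LIF (2.18), CCL2 (2.11) and CXCL16 (1.02). The regions of LIF and CCL28 are long, at 3204 and 2667 bases, against a median of 1369. The 9-base core TTATTTATT, written as DNA, was in 6 of 10 members (CXCL1, CXCL2, CXCL3, CXCL8, CCL28 and LIF) and in 9.54% of those tested genes; regions of different lengths are compared here. Of 13 tested regulators of AU-rich decay, 1 had an unadjusted limma p below 0.05, against 13.5% of all genes tested. It was RC3H2, which encodes a roquin protein (difference -0.27, limma adjusted p = 0.36). KHSRP, the most abundant of them per length, differed by 0.16 (limma adjusted p = 0.60). ADAM10 and ADAM17, the proteases that shed CXCL16, differed by -0.15 and -0.11 (limma adjusted p = 0.64 and 0.73), and ADAM9, the most abundant of the 3 tested per length, by 0.08 (0.86).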

How the data were processed

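RNA-seq libraries of 3 CD24low and 3 CD24high samples of MCF10AT1 cells were read from 1 deposited table. Per the submitters' processing notes, STAR 2.5.2, R 3.5.0, DESeq2 and the hg38 build were used. The deposited values are normalized counts, a signal of gene counts divided by a size factor per library, for 58381 identifiers, of which 58261 matched GENCODE 29 without the version; the sources used here do not give the read counter, annotation or strand setting. Whole reads were recovered by dividing each library by the value of 1 read (0.83 to 1.46 normalized counts), and 100% of values came out whole within 0.1 reads.

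Genes averaging 10 or more normalized counts over the libraries were compared on the log2 (normalized count + 1) scale, which understates changes of low genes, with limma 3.58.1 (mean-variance trend, group only, 2-sided) in R 4.3.3, with Benjamini-Hochberg adjustment over 16047 genes and a threshold of 0.05. DESeq2 1.42.0 and edgeR 4.0.16 on the recovered reads were alternatives; DESeq2 called 402 genes and edgeR 0. Other alternatives changed the pseudocount, filter, trend, scaling, ribosomal RNA covariate and replicate block, or left out libraries. Libraries of a group differed beyond sampling noise. Intervals of counts are exact Poisson and cover counting error only.

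The members and lists were chosen with earlier results of these data known. All members are named; per list, the tested genes with the largest positive and the largest negative difference at an unadjusted limma p below 0.05 and the gene with the highest level per kilobase are named, and others are said to be named after their values were seen. Coordinates are hg38 from GENCODE 29, promoters are from RefSeq, and level per kilobase divides by the union of annotated exons.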

Additional observations from a re-analysis of the deposited data

How the results depend on the processing

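Over all genes tested, limma called 0 genes, with 2164 at an unadjusted p below 0.05; DESeq2 called 402, no filter on low values 164, leaving out both libraries numbered 3 gave 103, and leaving out 1 library at a time gave 0 to 366, with 366 without CD24low replicate 3 and 0 with any other single library left out. Of the members, 0 were called under each of these. Of the 79 tested genes of the lists, 0 were called by limma, 2 by DESeq2 (CSF1 and LIFR), 1 without a filter (CSF1) and 0 to 1 with 1 library left out (CSF1, without CD24low replicate 3). The causes were not tested. Within libraries of low ribosomal RNA share the sign turned for CXCL3 (-0.26), CXCL8 (-0.10), CXCL16 (0.11), CCL20 (-0.54) and IL6 (-1.01). CCL28, close to 0, turned to 0.023 with DESeq2 and 0.024 with edgeR, to 0.29 without both libraries numbered 3 and to 0.037 within high share, and ranged from -0.25 to 0.21 with 1 library left out. Scaling to total reads moved the median difference of all genes to -0.037. IL6 rests on 1 to 60 reads per library, and CCL2 had none.

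With a replicate block on the number in the labels, limma gave calls for 716 genes, among them 1 member (LIF, -0.52, limma adjusted p = 0.035). The 5 list genes it called were LIF itself, CEBPD, CSF1, LIFR and SOCS3. With that block edgeR gave calls for 705 genes, among them 2 members, LIF and IL6. IL6 was at 2.56 (edgeR adjusted p = 0.018), a description only. The 5 list genes called by edgeR were LIF and IL6 themselves, CEBPD, CSF1 and LIFR. The deviations of same-numbered libraries from their group means correlated at 0.27, 0.30 and 0.05, and those of unlike-numbered libraries at -0.26 to 0.075. The labels do not say that the number pairs libraries, so the main test did not use it. A pairing is not excluded, and the calls depend on it. CD24low replicate 3 correlated better with CD24high replicate 1 (0.075) than with its own number.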
